A study of Mus musculus with 7 samples.

Results

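The genes described are 10 genes of the platelet surface and of platelet granules, Pf4, Ppbp, Vwf, Itga2b, Itgb3, Gp1ba, Gp1bb, Gp9, Gp5 and Gp6. They were taken by gene symbol from a table of 24062 mouse genes, and all 10 were present. RNA sequencing was done on total RNA of whole spleens, 3 enlarged spleens of the genotype Vav1-iCre;Brca1F22-24/F22-24 and 4 spleens labelled C57BL6 and Brca1+/+, from mice aged 2 to 3 months in both groups. Vav1-iCre drives recombination in blood stem cells and thus in their descendants, megakaryocytes included, and the altered allele is one of Brca1, a gene of DNA repair. The mutants are also labelled Brca1∆/∆, and a strain is named for wild type only. Only the mutant spleens carry the recombinase and the altered allele and are labelled as enlarged, so effects of these and of strain cannot be told apart. Each library is named as a separate spleen and no pairing of animals is given, so the tests measure no more than the variation among these individual spleens.

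Platelets are cell fragments shed by megakaryocytes, large cells of the bone marrow and, in mice, also of the splenic red pulp. Spleens further hold a reserve of circulating platelets, which carry megakaryocyte RNA. At a wound, the GPIb-IX-V complex on the platelet surface binds von Willebrand factor, Gp6 binds collagen, and the integrin of Itga2b and Itgb3 then binds fibrinogen and joins platelets together. Alpha granules release Pf4, Ppbp and von Willebrand factor.

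All 10 genes stood lower in the mutant spleens. Fitted levels were 2.88-fold (Vwf) to 4.82-fold (Pf4) lower, and 7 of the 10 passed edgeR's quasi-likelihood test, with a Benjamini-Hochberg adjusted p below the threshold of 0.05 used for every call. The 7 were Pf4, Vwf, Itga2b, Itgb3, Gp1ba, Gp1bb and Gp5. Over all 15188 genes tested, 28.9% were called lower and 57.4% were called in either direction. In all 10 genes each mutant library lay below each wild-type library, a state found for 32.6% of all genes tested. The opposite state held for 0 of the 10, against 29.2% of all genes. The separation was within counting error for Gp9 and Gp6, by 95% exact Poisson intervals. For Gp9 these were 4.44 to 5.73 CPM in mutant 1 and 4.85 to 5.91 CPM in wild-type 4. For Gp6 they were 1.07 to 1.75 CPM in mutant 1 and 1.42 to 2.23 CPM in wild-type 3. The median log2 fold change of the 10 was -1.97, and that of all genes tested was -0.02. Mutant 3 had the lowest level of all 7 libraries for each of the 10. CPM, counts scaled to a common library size by TMM, is a level relative to the other RNA of the library. Fewer platelets and megakaryocytes, less of this RNA per cell, and more RNA from other cells therefore cannot be told apart.

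**Figure D1:**
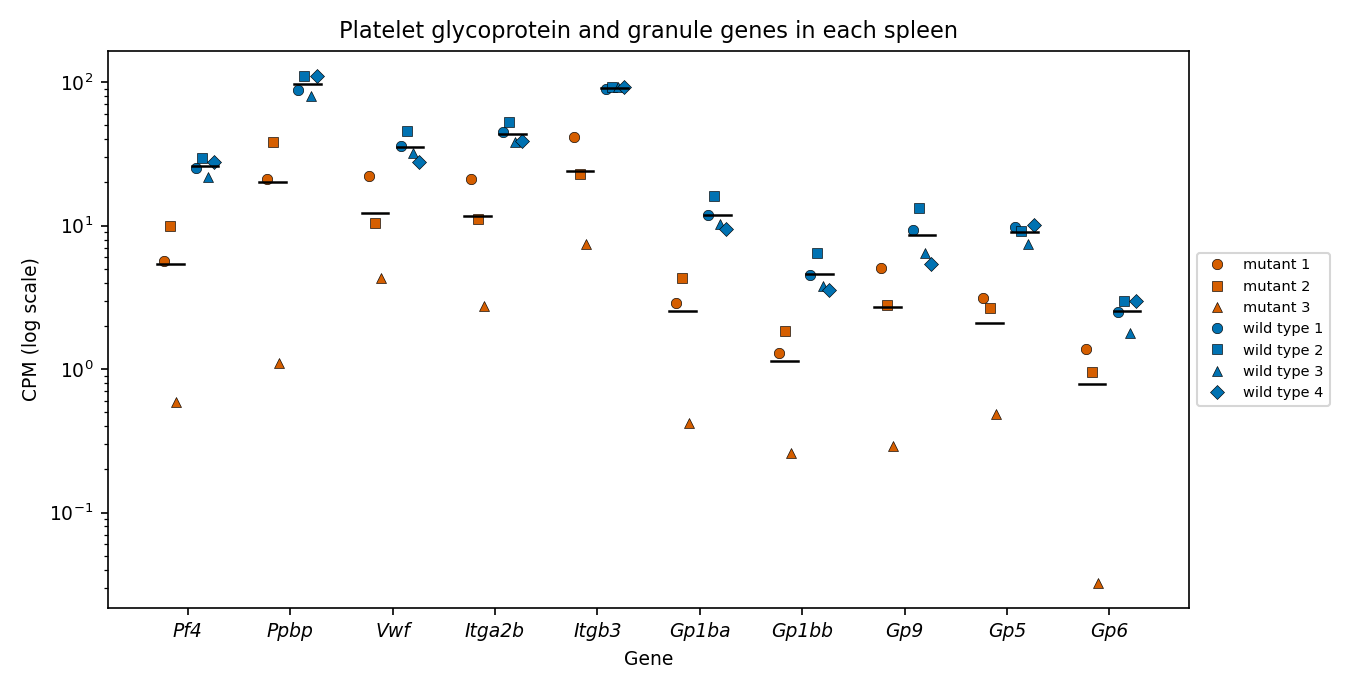
CPM on a log scale for each of the 10 genes, with mutant libraries (orange) left of wild-type libraries (blue); symbols mark the replicate number and black lines the group mean. Each mutant point lies below each wild-type point of the same gene, and mutant 3 is lowest throughout, from 0.0326 CPM for Gp6 to 7.46 CPM for Itgb3.

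Brca1 counts are summed over the whole gene and cannot show a change in part of it. They stood at 52.5 ± 13.3 CPM in the mutants and 38.7 ± 26.4 CPM in wild type (SD, n = 3 and 4). Total counts per library were 51680976, 30660980 and 35670644 in the mutants, against 26889712, 27852545, 41263918 and 63612532 for the wild-type spleens. The 10 genes together held 6089, 2999 and 544 counts in mutants 1 to 3 and 9093 to 24871 counts in the wild-type libraries. Genes of B cells, a main cell type of the spleen, summed to 26.0 to 154 CPM over 6 genes in the mutants, against 3041 to 4124 CPM for the wild-type spleens, while 6 T cell genes summed to 2523 to 5020 CPM in the mutants, against 685 to 911 CPM for the wild-type spleens. Of these lists, 6 of 6 B cell genes were called lower and 5 of 6 T cell genes higher. The mutant libraries are thus far from the wild-type ones in lymphocyte genes too, and the part of that shift in the platelet values was not tested.

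Pf4 and Ppbp, neighbours on chromosome 5, encode chemokines stored in alpha granules, platelet factor 4 and pro-platelet basic protein. Pf4 (90772435 to 90773383, plus strand, mm10) had 5.71, 10.01 and 0.586 CPM in mutants 1 to 3 and 25.2, 29.7, 21.9 and 27.9 CPM in wild-type 1 to 4. Its log2 fold change was -2.27 (SE 0.75, adjusted p = 0.0323, edgeR). The Pf4 level was therefore highest in mutant 2 among the mutants and lowest in mutant 3, where 18 counts were found. Without mutant 1, or without any 1 of the wild-type libraries, Pf4 was no longer called, at -2.36 to -2.18. Ppbp (90768518 to 90770060, plus strand) had 21.2, 38.6 and 1.11 CPM in the mutants, against 88.4, 110, 79.8 and 110 CPM in the wild-type spleens. Its log2 fold change was as large, -2.26, but the mutants differed among themselves by 34.8-fold and edgeR did not call it (SE 0.89, adjusted p = 0.0609). Without mutant 2 it was called at -3.13 (adjusted p = 0.0473, edgeR) and without mutant 3 at -1.69 (adjusted p = 0.0042, edgeR), and DESeq2 called it over all libraries (adjusted p = 0.0101).

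Vwf (chromosome 6, 125552948 to 125686679, plus strand) encodes von Willebrand factor, which tethers platelets to exposed collagen and is made by endothelium as well as megakaryocytes. It had 22.1, 10.4 and 4.30 CPM in the mutants, against 35.9, 46.0, 32.1 and 27.6 CPM in the wild-type spleens. The mutants again lay below every wild-type library, and the log2 fold change was -1.52 (SE 0.50, adjusted p = 0.0322, edgeR). The call was lost without mutant 2 or without wild-type 1, 2 or 3, at -1.58 to -1.37. Of the 10 genes Vwf kept the highest share of its wild-type mean in mutant 1 (62.4%) and in mutant 3 (12.1%). Endothelial genes moved the same way: 12 of 12 were called lower at a median log2 fold change of -1.24, their summed level was 365 to 521 CPM in the mutants, against 771 to 914 CPM for the wild-type spleens, and none was at 0. Flt1 and Tie1, receptors of blood vessel lining, were among them: Flt1 fell by 1.52 and Tie1 fell by 1.51 on the log2 scale. The part of endothelium in the Vwf value was not tested.

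Itga2b and Itgb3, which lie apart on chromosome 11, encode the chains of the platelet fibrinogen receptor. Itga2b (102453297 to 102469883, minus strand), whose product is also carried by early blood progenitors, had 21.01, 11.1 and 2.77 CPM in the mutants, against 44.8, 52.5, 38.1 and 38.8 CPM in the wild-type spleens. Its log2 fold change was -1.90 (SE 0.58, adjusted p = 0.0239, edgeR), and it was no longer called without mutant 2 (-1.89) or wild-type 2 (-1.79). Itgb3 (104608000 to 104670471, plus strand) also pairs with Itgav outside platelets. It had 41.8, 23.1 and 7.46 CPM in the mutants, against 89.1, 92.7, 92.0 and 92.3 CPM in the wild-type spleens. The wild-type spleens thus differed by 1.04-fold between lowest and highest, the narrowest range of the 10 genes, and the mutants by 5.61-fold. The log2 fold change of Itgb3 was -1.92 (SE 0.50, adjusted p = 0.0123, edgeR), the smallest adjusted p of the 10, and the call held with any 1 library left out. Both chains were highest in mutant 1 among the mutants, at 48.3% of the wild-type mean for Itga2b and 45.7% for Itgb3. Macrophage genes, Itgav among them, were called lower in 5 of 10, with a summed level of 336 to 1667 CPM in the mutants, against 2725 to 3444 CPM for the wild-type spleens and none at 0. That count was 3 without mutant 2, 9 without mutant 1 and 8 by limma-voom. Stem and progenitor genes were called lower in 8 of 10, with a summed level of 28.4 to 97.1 CPM in the mutants, against 269 to 369 CPM for the wild-type spleens. Their part in the integrin values was not tested.

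The GPIb-IX-V complex is built from the products of 4 genes on 3 chromosomes, and loss of Gp1ba, Gp1bb or Gp9 causes Bernard-Soulier syndrome in humans. Gp1ba, the chain that binds von Willebrand factor (chromosome 11, 70639122 to 70642055, plus strand), had 2.89, 4.30 and 0.423 CPM in the mutants, against 11.9, 16.0, 10.3 and 9.41 CPM in the wild-type spleens. The log2 fold change was -2.23 (SE 0.66, adjusted p = 0.022, edgeR), with all mutants below all wild types, and the call was lost without mutant 1 (-2.24) or wild-type 2 (-2.03). Gp1bb, the chain joined to it by a disulphide bond (chromosome 16, 18620319 to 18622403, minus strand), had 1.30, 1.83 and 0.260 CPM in the mutants, against 4.52, 6.44, 3.78 and 3.54 CPM in the wild-type spleens. For Gp1bb the log2 fold change was -2.01 (SE 0.60, adjusted p = 0.0218, edgeR), and the call was lost without wild-type 2 (-1.78). The Gp1bb span shares 593 bases with Sept5 on the same strand in the deposited coordinates, and in GENCODE M21 the span of Sept5 covers 1902 bases of it and that of Gm49601 covers 1938, Gp1bb exon bases among them. Reads of these genes cannot be fully separated, so the Gp1bb values, per kilobase too, are uncertain. Sept5 itself, a septin gene, fell by 1.52 on the log2 scale (adjusted p = 0.0325, edgeR).

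Gp9, a small subunit that the complex needs to reach the surface (chromosome 6, 87778136 to 87779762, plus strand), had 5.05, 2.78 and 0.293 CPM in the mutants, against 9.30, 13.3, 6.40 and 5.36 CPM in the wild-type spleens. Mutant 1 lay just under the lowest wild-type library, and the wild-type range of 2.49-fold was the widest of the 10 genes. Its log2 fold change of -1.65 did not pass (SE 0.79, adjusted p = 0.107, edgeR), while DESeq2 called it (adjusted p = 0.0396). Erythroid genes differed in the same libraries: 12 of them summed to 23803, 4768 and 6393 CPM in mutants 1 to 3 and to 17740, 43826, 3162 and 3439 CPM in wild-type 1 to 4. Mutant 1 and wild-type 2 had the highest erythroid sum of their genotype and also the highest Gp9, Vwf, Itga2b and Itgb3 levels. This did not hold for the rest of the 10 genes. For Itgb3 the wild-type values were nearly flat, differing by 1.04-fold. Wild-type 1 had the least Itgb3 of them, with a higher erythroid sum than wild-type 3 and 4. Also, mutant 3, with a higher erythroid sum than mutant 2, had less of all 10 genes. The part of erythroid cells in these values was not tested. Of the 12 erythroid genes edgeR called 0, with 0 at an unadjusted p under 0.05, and DESeq2 and limma-voom also called 0. Without wild-type 2 edgeR called 1 of them higher. Without both wild-type 1 and 2, an alternative chosen after the data were seen, edgeR called 4 higher.

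Gp5, a subunit cleaved by thrombin (chromosome 16, 30307685 to 30310781, minus strand), had 3.13, 2.68 and 0.488 CPM in the mutants, against 9.72, 9.11, 7.39 and 10.2 CPM in the wild-type spleens. Mutants 1 and 2 were close to each other here, and the log2 fold change was -2.11 (SE 0.57, adjusted p = 0.0145, edgeR), called also with any 1 library left out. Gp6, the collagen receptor that signals through the Fc receptor gamma chain (chromosome 7, 4368713 to 4397744, minus strand), had the lowest CPM of the 10. It had 1.38, 0.952 and 0.0326 CPM in the mutants, against 2.51, 2.96, 1.79 and 2.97 CPM in the wild-type spleens. The value in mutant 3 is 1 count, with a 95% exact Poisson interval of 8.24e-04 to 0.181 CPM that covers counting error only. The log2 fold change of Gp6 was -1.67 and did not pass (SE 0.80, adjusted p = 0.109, edgeR). It was called without mutant 3 (-1.12, adjusted p = 0.029, edgeR) and by limma-voom (adjusted p = 0.0486). Fcer1g, which encodes the gamma chain that Gp6 needs and that Fc receptors of other blood cells share, fell by 1.44 on the log2 scale (SE 0.38, adjusted p = 0.0136, edgeR).

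Megakaryocyte genes are commonly controlled by GATA and ETS factors, and the regions before the start sites of 3 GPIb-IX-V genes are shown because each holds letters that both factor families are known to bind. The sequences are the 250 bases before the RefSeq start (GRCm38.p6), read 5′ to 3′ on the gene's strand, with capitals for GATAA or AGGAAG on either strand. Gp1ba is at chr11:70638872-70639121 (plus strand), Gp9 at chr6:87777820-87778069 (plus strand) and Gp5 at chr16:30310782-30311031 (minus strand).
Gp1ba: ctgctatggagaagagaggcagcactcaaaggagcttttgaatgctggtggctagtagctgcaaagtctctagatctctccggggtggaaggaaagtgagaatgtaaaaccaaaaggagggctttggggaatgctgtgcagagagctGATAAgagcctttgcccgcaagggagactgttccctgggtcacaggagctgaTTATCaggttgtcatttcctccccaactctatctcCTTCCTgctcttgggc
Gp9: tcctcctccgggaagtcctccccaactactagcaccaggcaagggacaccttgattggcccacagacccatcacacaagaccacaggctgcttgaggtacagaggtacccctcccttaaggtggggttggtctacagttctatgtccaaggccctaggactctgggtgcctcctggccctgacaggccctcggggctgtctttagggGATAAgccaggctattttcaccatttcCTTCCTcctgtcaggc
Gp5: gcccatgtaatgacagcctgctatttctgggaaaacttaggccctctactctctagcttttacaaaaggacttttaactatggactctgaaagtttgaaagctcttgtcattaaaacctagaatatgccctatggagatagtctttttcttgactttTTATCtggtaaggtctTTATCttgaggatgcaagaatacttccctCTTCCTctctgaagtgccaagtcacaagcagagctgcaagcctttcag
In Gp1ba the GATAA letters begin 103 bases before the start and, on the other strand, 51 bases before it. Gp9 holds them at 43 bases, and Gp5 holds 2 copies on the other strand at 93 and 77 bases. AGGAAG is on the other strand in all 3, at 16 bases in Gp1ba and in Gp9 and at 48 bases in Gp5. Of the 8 genes with an entry, 4 held GATAA, against 22.6% of 32851 promoters of the same length, and 5 held AGGAAG, against 29.5%. With the longer form AGATAA, which contains GATAA, 2 of the 8 matched, against 9.99% of promoters. Both GATAA and AGGAAG were in 3 of the 8, against 6.58% of promoters. Gp1bb, the remaining GPIb-IX-V gene, held neither, and nor did Ppbp. The letters were chosen with these sequences in view, and the matches are letters in a window, not shown sites. Itgb3 and Vwf have no entry in that table.

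Per kilobase of exon (merged GENCODE M21 exons), the order of the group means differed between mutant and wild-type spleens only in the places of Vwf and Gp1ba, but single mutants departed from it. Ppbp stood at 18.7 ± 17.3 CPM per kb in the mutants and 89.6 ± 14.2 CPM per kb in wild type (SD, n = 3 and 4, as for the values that follow). Pf4 followed at 7.77 ± 6.74 CPM per kb in the mutants and 37.4 ± 4.87 CPM per kb in wild type. The integrin chains came next, Itgb3 at 4.17 ± 2.97 CPM per kb in the mutants and 15.8 ± 0.286 CPM per kb in wild type. Ppbp and Pf4 thus had the highest means, while in mutant 3 Itgb3 (1.29 CPM per kb) lay above Ppbp (1.02 CPM per kb) and Pf4 (0.837 CPM per kb). Itga2b stood at 3.38 ± 2.66 CPM per kb in the mutants and 12.7 ± 1.95 CPM per kb in wild type, and Gp9 at 3.08 ± 2.70 CPM per kb in the mutants and 9.76 ± 4.05 CPM per kb in wild type. Gp1ba, Gp5 and Vwf formed a middle group of 0.933 to 1.25 CPM per kb in the mutants and 3.62 to 4.38 CPM per kb in wild type, as means. Gp1bb had 0.542 ± 0.383 CPM per kb in the mutants and 2.19 ± 0.630 CPM per kb in wild type. The lowest was Gp6, at 0.134 ± 0.117 CPM per kb in the mutants and 0.434 ± 0.0940 CPM per kb in wild type. In the mutants the ranges of all neighbours in the order overlapped. In wild type they overlapped for Itga2b with Gp9, Gp1ba with Gp5, Gp5 with Vwf and Vwf with Gp1bb. Vwf ranked 6 in the mutants and 8 in wild type, and Gp1ba ranked 8 in the mutants and 6 in wild type.

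The 3 mutant spleens did not lose these transcripts evenly. As a share of the wild-type mean, the 10 genes had a median of 40.1% in mutant 1 (range 21.8% to 62.4%), 34.3% in mutant 2 (25.2% to 40.1%) and 4.46% in mutant 3 (1.1403% to 12.1%). In mutant 1 the genes spread widely, with Vwf, Gp9, Gp6, Itga2b and Itgb3 at 45.7% to 62.4% of the wild-type mean and Pf4, Ppbp, Gp1ba and Gp1bb at 21.8% to 28.4%. Mutant 2 had more Pf4, Ppbp, Gp1ba and Gp1bb than mutant 1, by 1.75-fold, 1.82-fold, 1.49-fold and 1.41-fold. For the other 6 genes mutant 1 was higher, by 1.17-fold (Gp5) to 2.12-fold (Vwf). This split is a description of single libraries, with no test. In wild type the medians were 83.1% to 118%, and the full range over genes and libraries was 62.4% to 155%.

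**Figure D2:**
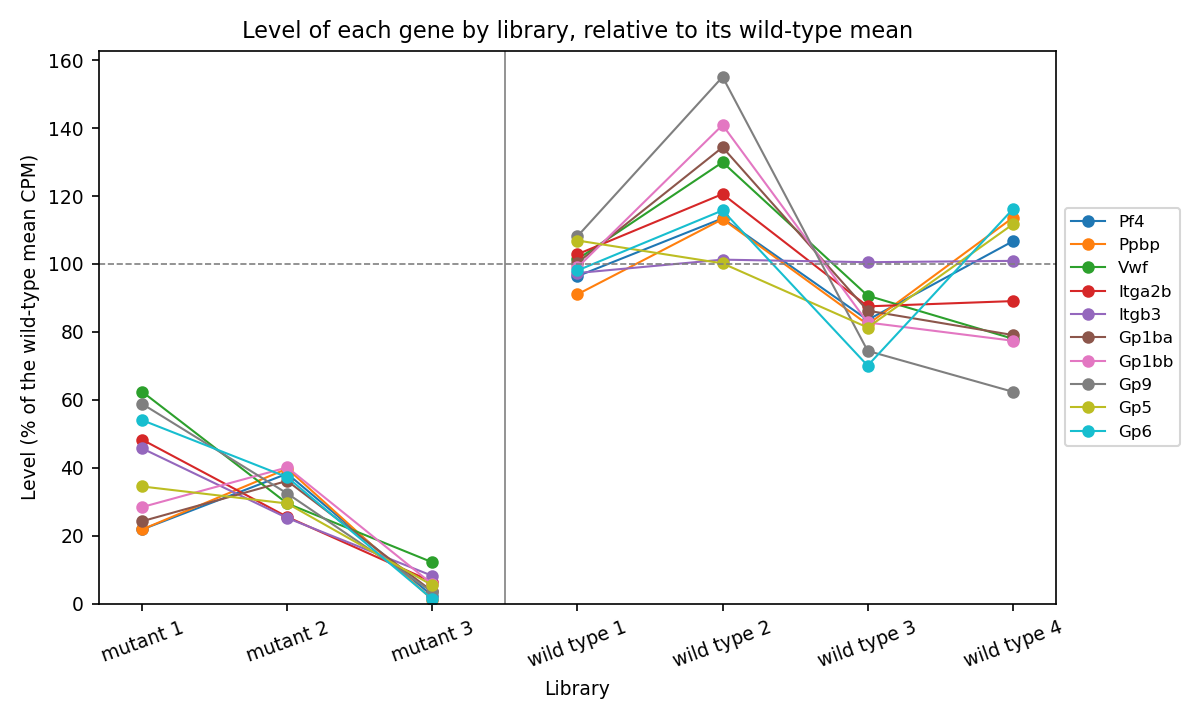
Level of each of the 10 genes in each library as a percentage of its wild-type mean CPM (dashed line at 100%), with lines joining the values of 1 gene within a genotype and no order among replicates. In mutants 1 and 2 the genes lie between 21.8% and 62.4%, in mutant 3 at or under 12.1%, and in wild type between 62.4% and 155%.

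Ratios of counts within a library do not depend on library scaling, and were used to ask whether the genes fell unequally. Relative to Pf4, the log2 ratio of Vwf was 1.95, 0.06 and 2.84 in mutants 1 to 3 and 0.51, 0.63, 0.55 and -0.02 in wild-type 1 to 4. Mutants 1 and 3 lay above all wild types and mutant 2 among them, and the group difference of 1.197 did not pass (adjusted p = 0.471, exact permutation test over 35 splits, two-sided, 9 ratios). For Itgb3 the difference was 0.75 and for Itga2b 0.68, with mutant 2 below all wild types and mutants 1 and 3 above them (adjusted p = 0.471 for both, same exact test). The differences of the other 6 ratios were -0.31 for Ppbp, 0.27 for Gp1ba, 0.65 for Gp1bb, 0.69 for Gp9, 0.52 for Gp5 and 0.36 for Gp6, and none passed (adjusted p = 0.471 to 0.657, exact permutation test). The smallest p this design allows is 0.0286 before adjustment. After adjustment over 9 ratios, no ratio that alone reached it could pass. The test therefore cannot decide whether a single gene fell unequally. Ppbp kept its ratio to Pf4 closely in 6 of the libraries, at 1.81 to 1.98 on the log2 scale, and stood at 0.90 in mutant 3 on 34 and 18 counts. That no ratio to Pf4 passed does not show that the genes fell equally, and the spread between mutants was wide (SD 0.39 to 1.42 on the log2 scale).

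**Figure D3:**
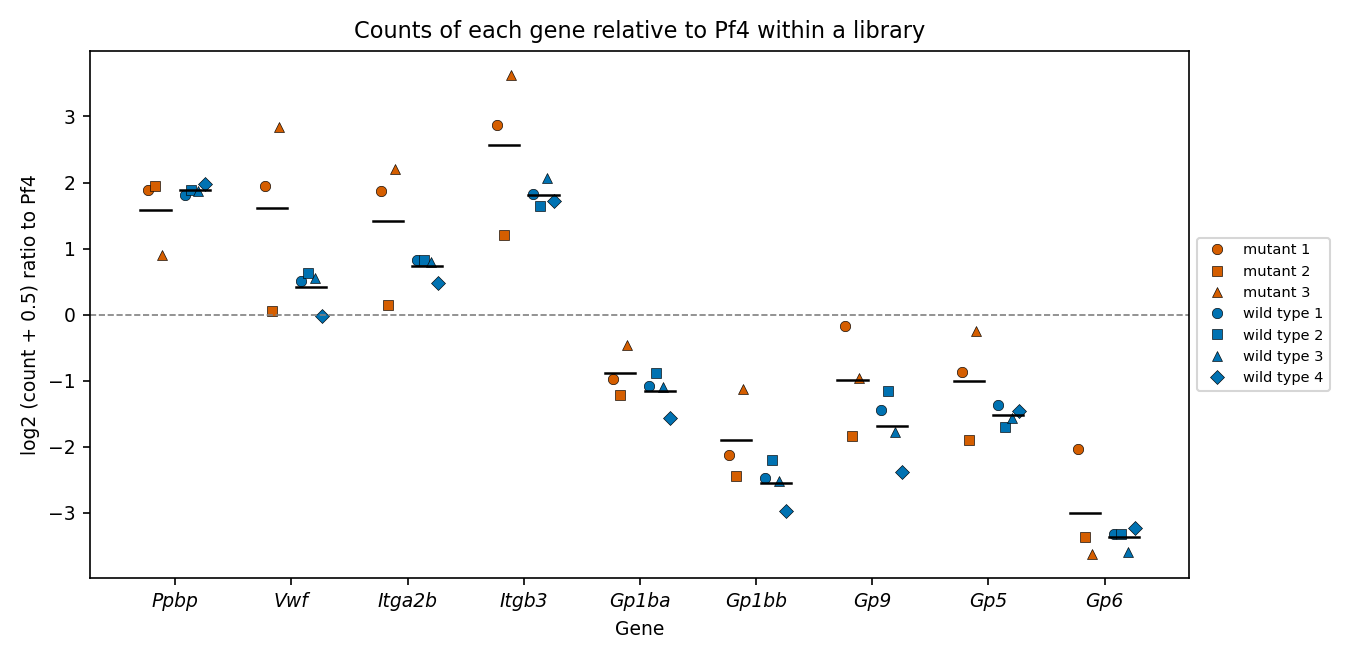
Log2 ratio of the count of each gene to that of Pf4 within each library, after adding 0.5 to both counts, with mutant libraries (orange) left of wild-type libraries (blue) and black lines at group means. Mutant points spread more than wild-type points for all 9 genes, and for Vwf, Itga2b and Itgb3 mutants 1 and 3 lie above and mutant 2 lies low.

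Other genes of platelets and megakaryocytes were read from 5 lists of 61 genes in all. Of these, 37 were called lower, 5 higher and 19 not called, with a median log2 fold change of -1.24, against 28.9% of all genes tested called lower and 28.5% called higher. Among 15 platelet receptors and surface proteins 12 were called lower and 3 higher, at a median of -1.71. Pear1, a receptor engaged where platelets touch, fell by 2.14 (SE 0.27), P2ry12, the ADP receptor blocked by clopidogrel, by 1.71 (SE 0.33), and Itga2, a collagen-binding integrin chain, by 1.71 (SE 0.36) on the log2 scale. Treml1, a protein of alpha granules and the surface of activated platelets, had 1.61, 2.61 and 0.0977 CPM in the mutants, against 9.19, 11.4, 7.74 and 8.23 CPM in the wild-type spleens (log2 fold change -2.67, SE 0.81, adjusted p = 0.0233, edgeR). G6b, an inhibitory receptor that is highly restricted to this lineage, had 0.949, 1.34 and 0 CPM in the mutants, against 8.20, 11.0, 7.26 and 4.92 CPM in the wild-type spleens. Clec1b, the podoplanin receptor, fell by 1.51 (SE 0.48). Treml1, G6b, Clec1b, Fcer1g and Sept5, and Tubb1, Selp, Gata1 and Tal1 below, were singled out after their values were seen.

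The receptors called higher were P2rx1, F2rl3 and Tbxa2r. P2rx1, an ATP-gated channel, had 7.59, 36.7 and 61.6 CPM in the mutants, against 9.61, 8.997, 10.5 and 10.2 CPM in the wild-type spleens, so mutant 1 lay below every wild type. Its log2 fold change was 1.84 (SE 0.56, adjusted p = 0.0244, edgeR), and the call was lost in 11 of 18 alternatives, among them limma-voom (adjusted p = 0.167) and leaving out mutant 2, mutant 3 or any 1 wild-type library (adjusted p = 0.0547 to 0.0956, edgeR). F2rl3, a thrombin receptor, stood at 15.3 ± 5.29 CPM in the mutants and 6.34 ± 1.69 CPM in wild type (SD, n = 3 and 4). Tbxa2r, the thromboxane receptor, stood at 26.0 ± 5.09 CPM in the mutants and 16.1 ± 1.17 CPM in wild type. Their log2 fold changes were 1.27 (SE 0.30) and 0.69 (SE 0.18), both called in edgeR. Tbxa2r was not called in 3 of 18 alternatives, by library size alone (adjusted p = 0.108, edgeR), with the replicate number as a block (adjusted p = 0.0816, edgeR) and without both wild-type 1 and 2 (adjusted p = 0.121, edgeR). F2rl3 was not called in the last of these (adjusted p = 0.0904, edgeR).

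Signalling genes used behind the integrin and Gp6 were called lower in 8 of 10 and higher in 0 (0 also at an unadjusted p under 0.05 and by DESeq2 and limma-voom), at a median of -1.61. On the log2 scale Syk fell by 3.42, Src fell by 2.52 and Rasgrp2 fell by 1.79. Lymphocytes and myeloid cells also use these genes, and B cell genes fell in the same libraries as given above. The part of these other cells in the signalling gene values was not tested. Granule cargo and granule formation genes were called lower in 9 of 15 and higher in 0 (0 also at an unadjusted p under 0.05 and by DESeq2 and limma-voom), at a median of -1.42. Among granule proteins also made elsewhere in the spleen, Clu fell by 3.13, Timp3 fell by 1.76 and Srgn fell by 1.42. Selp, the adhesion molecule P-selectin of alpha granules and endothelium, had 1.81, 2.47 and 0.488 CPM in the mutants, against 3.39, 4.29, 3.23 and 3.96 CPM in the wild-type spleens, and was not called (log2 fold change -1.22, SE 0.50, adjusted p = 0.0669, edgeR).

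Enzymes and cytoskeletal genes were called lower in 6 of 10 and higher in 0 (0 also at an unadjusted p under 0.05 and by DESeq2 and limma-voom), at a median of -1.17. Without wild-type 3 the count called lower was 3, and without mutant 1 the count called higher was 1. Alox12, the platelet lipoxygenase, fell by 2.68 (SE 0.53), Flna, an actin crosslinker that anchors Gp1ba, by 1.24 (SE 0.16) and Myh9, a non-muscle myosin, by 0.52 (SE 0.13) on the log2 scale. Tubb1, the tubulin of platelets, had 4.83, 6.38 and 0.163 CPM in the mutants, against 24.4, 30.1, 22.7 and 24.98 CPM in the wild-type spleens. That order, mutant 2 over mutant 1 with mutant 3 far lower, is the one of Pf4 and Ppbp, and the log2 fold change was -2.75 (SE 0.88, adjusted p = 0.0292, edgeR).

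The list of megakaryocyte regulators was called in both directions. Of 11 genes 2 were called lower, Fli1 among them, and 2 higher (Gabpa and Runx1), at a median log2 fold change of 0.63. Fli1, an ETS factor of megakaryocytes, fell by 0.96 (SE 0.19). Gabpa, another ETS factor, and Runx1, which T cells also express, rose by 0.73 (SE 0.12) and 1.08 (SE 0.26). Several of the 7 genes not called, such as Gata1 and Tal1, also serve erythroid cells, whose sums differed between libraries of 1 genotype as given above. The part of erythroid cells in the values of these regulators was not tested. Mast cells and basophils, which share receptors with this lineage, were called lower in 3 of 6 genes, with a summed level of 3.61 to 18.6 CPM in the mutants, against 18.8 to 21.2 CPM for the wild-type spleens. Without mutant 1, and by limma-voom, 5 of the 6 were called lower, and without mutant 2 edgeR called 1 higher. Cma1, Mcpt8 and Fcer1a were at 0 in at least 1 mutant library.

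**Figure D4:**
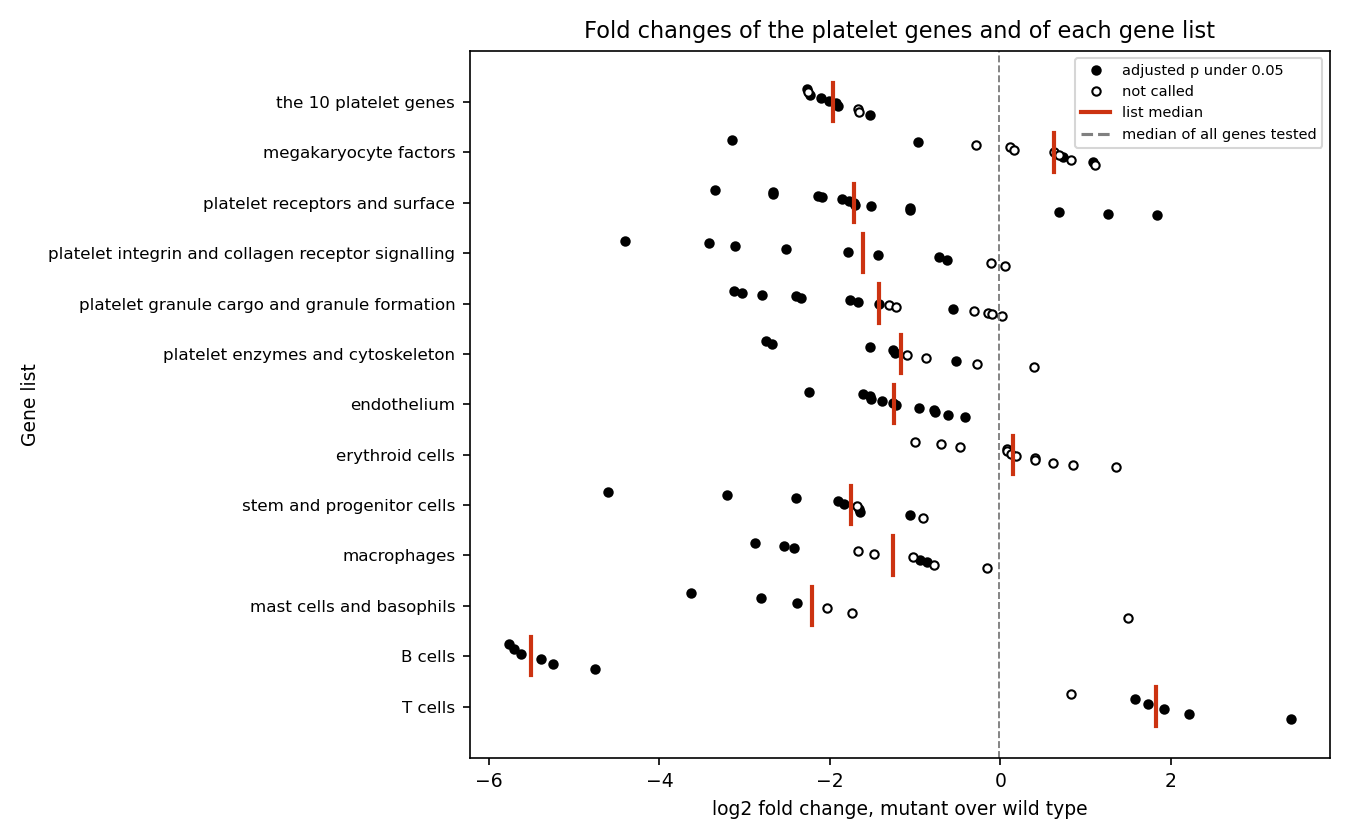
Log2 fold change, mutant over wild type, of the 10 platelet genes and of each member of 12 gene lists, with filled points for an adjusted p under 0.05 in edgeR, red bars for list medians and a dashed line for the median of all genes tested (-0.02). The 10 platelet genes lie between -2.27 and -1.52, and B cell genes lie lowest. Several lists lie on both sides of 0, among them megakaryocyte regulators, erythroid genes and platelet receptors.

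By pattern over the 7 libraries, the genes nearest to the median of the 10 were Fpr2, Mag, Pilrb1, Tnfrsf11a and Slc37a2. Likeness was the root mean square difference, over the 7 libraries, between a gene's log2 CPM relative to its wild-type mean and the median of the 10 genes in that library. It was 0.22 for Fpr2, a formyl peptide receptor of phagocytes, and 0.23 for Mag, a sialic acid-binding lectin known from myelin, among 12483 genes compared. It was 0.26 for Pilrb1, an activating immunoglobulin-type receptor, 0.28 for Tnfrsf11a, the receptor RANK, and 0.29 for Slc37a2, a sugar phosphate transporter of macrophages. Fpr2 had 2.83, 2.54 and 0.260 CPM in the mutants, against 8.38, 9.40, 6.75 and 8.57 CPM in the wild-type spleens. By the same measure the 10 genes themselves ran from 0.21 (Gp5) to 0.81 (Ppbp). Genes with 0 counts in any library, such as G6b, could not enter this ranking. Genes with a mean under 1 CPM or with a clone name were also left out.

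The calls rest on few libraries, while all 10 genes kept a negative log2 fold change in every alternative fit. Leaving out wild-type 2, the library with the highest level of 7 of the 10 genes, left 2 genes called lower (Itgb3 and Gp5) in place of 7. Over all genes, that fit called 3885 of 15150 tested lower, against 4390 of 15188 with all libraries. Without both wild-type 1 and 2, chosen after the data were seen for their high erythroid genes, edgeR called 0 of the 10 (2 at an unadjusted p under 0.05, and 5 by limma-voom), with a median log2 fold change of -1.83. Over all genes, edgeR called 3011 of 15474 tested lower there.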

How the data were processed

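Counts per gene came from 7 mouse spleen libraries. The submitters' processing notes name the mm10 build, edgeR, Subread 1.4.6 with featureCounts, TopHat2 2.0.12 and bcl2fastq 2.17.1.14. Their settings, and whether strand was used in counting, are not given in the sources used. Deposited by the authors were raw counts and a table of scaled CPM (a score whose columns do not share 1 total) equal to the deposited counts times 1 constant per library. Deposited starts count from 0, and 1 was added. Column names matched samples by the labels' sample names.

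Genes were tested by edgeR's quasi-likelihood method (edgeR 4.0.16, R 4.3.3), with filterByExpr, TMM factors and a term for group, adjusted by Benjamini-Hochberg over all genes tested; all 10 genes passed the filter. Log2 fold changes are of mutant over wild type, and SE is the log2 fold change over the square root of F. The method was also run on simulated counts with few changed genes. These data have many, so that run does not check the calls made here. Alternatives used limma 3.58.1 and DESeq2 1.42.0, other scalings, filters and fewer libraries. Exon lengths came from GENCODE M21 (GRCm38, as mm10). Genes named by rule were the 10, in each list the 3 with the smallest p and those against most calls, and the 5 most alike; Brca1 is given as the targeted gene, and the others named are said to be chosen after their values were seen. The 10 genes and the lists were chosen with earlier results of these data known. A gene counted in a list is not reported here by itself.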

Additional observations from a re-analysis of the deposited data

Results flagged for a closer look

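Among 63 sets of 4 wild-type values examined (the CPM of the named genes and the ratios to Pf4), 5 had 1 library standing apart by Dixon's criterion for 4 samples (gap over range above 0.829), and chance flags about 1 in 20. Of the 10 platelet genes this touched only the ratio of Itga2b to Pf4, at 0.927, where wild-type 4 had a log2 ratio of 0.47 and the others 0.80 to 0.83. Pear1 stood higher in wild-type 3, at 53.2 CPM beside 41.1 to 41.9 CPM (0.933). F2rl3 stood higher in wild-type 4, at 8.87 CPM beside 5.44 to 5.62 CPM (0.948). Flna stood higher in wild-type 1, at 982 CPM beside 838 to 858 CPM (0.860). Ly6a, a stem cell and lymphocyte antigen, stood higher in wild-type 4, at 223 CPM beside 159 to 168 CPM (0.855).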

How the results depend on the processing

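All 10 genes kept a negative log2 fold change in 18 alternatives, and their median ran from -2.38 (replicate block) to -1.52 (without mutant 3). Ppbp was called with library size alone (-2.47), DESeq2 (-2.21), limma-voom (-3.23) and limma on the deposited CPM plus 1 (-2.98) or plus 0.1 (-3.26). Gp9 was called by DESeq2 (-1.64) and on CPM plus 1 (-1.56), and Gp6 by limma-voom (-2.56) and on CPM plus 1 (-1.06) or plus 0.1 (-2.14). Library size alone moved the median of all genes to -0.26 and the calls over all genes to 5129 lower and 3153 higher, against 4390 and 4334.

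With single libraries left out, 2 to 9 of the 10 genes were called lower. Over all genes, these fits called 3674 to 4811 lower, with 14886 to 15537 genes tested. The log2 fold changes ran from -3.06 to -1.73 for Pf4, -3.13 to -1.69 for Ppbp, -2.17 to -1.13 for Vwf, -2.56 to -1.44 for Itga2b, -2.84 to -1.72 for Gp1ba, -2.54 to -1.54 for Gp1bb, -2.39 to -1.13 for Gp9 and -2.29 to -1.12 for Gp6. Without both wild-type 1 and 2, an alternative chosen after seeing the data, 0 of the 10 were called (2 at an unadjusted p under 0.05 in edgeR, 5 by limma-voom, DESeq2 not run there). Of all 15474 genes tested in that fit, edgeR called 3011 lower and 2923 higher. Pf4 stood at -2.20, Vwf at -1.28, Itga2b at -1.73, Itgb3 at -1.94, Gp1ba at -1.96, Gp1bb at -1.70 and Gp5 at -2.06, and 20 of the 61 platelet list genes were called lower and 2 higher. The cause was not tested.

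The labels give no pairing by replicate number, and the values showed no clear one. Deviations of same-numbered libraries correlated at 0.04, -0.19 and 0.10, and of the mutants only mutant 3 correlated best with its own number. With so few libraries these correlations cannot exclude a pairing. With the replicate block 7 of the 10 genes were called lower, and of the platelet list genes 30 lower and 2 higher. Of all 15188 genes tested, 3140 were called lower and 2950 higher in that fit.

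Relative to Gp9 in place of Pf4 the differences turned to -0.013 for Itga2b, -0.42 for Gp1ba, -0.044 for Gp1bb, -0.17 for Gp5 and -0.34 for Gp6. With single libraries left out, Gp6 relative to Pf4 ran from -0.13 to 0.66 and Ppbp relative to Pf4 from -0.49 to 0.031. The erythroid gene Rhag, not called, ran from -0.48 (without mutant 1) to 1.71 (without wild-type 2). It stood at 3.04 without both wild-type 1 and 2 (adjusted p = 0.0522, edgeR). Hbb-b1, not called, turned to 0.091 without wild-type 2 and to 1.41 without wild-type 1 and 2. Depth limits Gp6, Gp1bb and Gp9 in mutant 3, where 1, 8 and 9 counts were found.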
